A study of Homo sapiens with 4 samples.

Results

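The genes described are those of HLA class I antigen presentation, namely the heavy chains HLA-B, HLA-C, HLA-E and HLA-F, their light chain B2M, the peptide transporter subunits TAP1 and TAP2, the loading factor TAPBP and the proteasome subunit PSMB9. They are 9 of the 19775 genes that the arrays read through a probe set annotated to 1 gene symbol alone. All probe sets annotated to exactly 1 of these symbols were taken, whatever their values, which gave 25 of the 54613 probe sets tested. The groups compared were 320-IWR cells and their parental COLO-320DM cells, with 2 arrays each. COLO-320DM is a human colorectal cancer cell line. 320-IWR is a sub-line of it that is resistant to tankyrase inhibitors and was obtained by continuous culture of COLO-320DM cells with IWR-1, a tankyrase inhibitor that lowers Wnt/β-catenin signaling. The comparison asks how the resistant cells differ from their parent. Both lines were grown in dishes until nearly confluent before RNA was taken. The labels mention no drug in the dishes that were harvested. 320-IWR is a single resistant sub-line, so that what goes with resistance and what goes with that one sub-line cannot be told apart.

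HLA class I molecules sit on the surface of nearly all nucleated cells and show short peptides from the proteins of the cell to CD8+ T cells, while HLA-E and, for several alleles, HLA-C are also read by natural killer cells. A heavy chain generally needs β2-microglobulin, the product of B2M, and a peptide to be stable. The peptides are cut by the proteasome, in which PSMB9 takes the place of the constitutive subunit PSMB6 after interferon, are carried into the endoplasmic reticulum by the TAP1/TAP2 transporter, and are loaded with the help of tapasin, the product of TAPBP. Tumors often lose parts of this pathway, and interferon-γ raises most of its genes together.

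Promoters of HLA-B, HLA-C, HLA-F, B2M and TAP1 are shown, and those of TAP2, TAPBP and PSMB9 were searched without being printed, because class I presentation genes are known to be controlled together, by NF-κB and interferon regulatory factors at the upstream enhancer and interferon response elements and by RFX, CREB/ATF and NF-Y factors, with NLRC5, at the module nearer the start site. The sequences are the 250 bases before the start site in the human reference, from RefSeq on GRCh38.p14, 5′ to 3′ on the strand of the gene. They are reference sequence and not the alleles of COLO-320DM. A promoter was matched for 8 of the 9 genes, and HLA-E was not among them. TAP1 has 2 start sites in that table, and the one facing PSMB9 is shown. Capitals mark the letters of 5 short motifs, searched on both strands. These are AANNGAAA, the core that interferon regulatory factors recognise, GGGATTCNC and GGGANTTTC, both of the κB type, TGACG, the core of cAMP response elements, and CCAAT, the NF-Y box. None of the 5 contains another, but copies of AANNGAAA overlap each other in TAP1, TAP2, TAPBP and B2M.
HLA-B, chr6:31357180-31357429 (-): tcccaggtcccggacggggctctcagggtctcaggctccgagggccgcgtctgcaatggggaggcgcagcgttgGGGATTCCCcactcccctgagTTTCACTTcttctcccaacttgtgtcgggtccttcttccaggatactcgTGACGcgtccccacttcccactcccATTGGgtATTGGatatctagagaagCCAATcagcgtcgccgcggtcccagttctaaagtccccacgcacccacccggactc
HLA-C, chr6:31272093-31272342 (-): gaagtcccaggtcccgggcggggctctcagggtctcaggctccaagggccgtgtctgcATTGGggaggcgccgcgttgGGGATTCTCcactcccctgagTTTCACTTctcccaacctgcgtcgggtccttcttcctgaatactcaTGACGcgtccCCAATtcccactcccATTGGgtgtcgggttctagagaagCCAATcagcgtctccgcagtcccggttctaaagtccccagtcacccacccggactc
HLA-F, chr6:29723184-29723433 (+): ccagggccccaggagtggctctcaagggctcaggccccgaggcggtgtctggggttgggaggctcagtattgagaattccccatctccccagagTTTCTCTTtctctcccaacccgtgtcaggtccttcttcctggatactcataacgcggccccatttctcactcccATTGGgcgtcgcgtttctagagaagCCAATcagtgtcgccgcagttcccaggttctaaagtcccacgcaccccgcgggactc
B2M, chr15:44711267-44711516 (+): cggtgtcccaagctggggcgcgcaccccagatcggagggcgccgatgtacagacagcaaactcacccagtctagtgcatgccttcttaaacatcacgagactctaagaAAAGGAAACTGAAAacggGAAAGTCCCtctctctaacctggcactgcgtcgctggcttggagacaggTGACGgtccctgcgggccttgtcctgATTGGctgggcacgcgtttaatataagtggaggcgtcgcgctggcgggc
TAP1, chr6:32853705-32853954 (-): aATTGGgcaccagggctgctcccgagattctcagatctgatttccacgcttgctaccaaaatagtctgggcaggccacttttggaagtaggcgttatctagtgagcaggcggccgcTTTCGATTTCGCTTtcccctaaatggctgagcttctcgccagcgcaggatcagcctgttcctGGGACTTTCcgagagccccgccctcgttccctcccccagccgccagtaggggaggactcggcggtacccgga

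The upstream regions of HLA-B and HLA-C were nearly the same sequence, with 89.0% of aligned positions identical. HLA-F shared 79.8% of positions with HLA-B and 78.2% with HLA-C. HLA-B and HLA-C both held GGGATTCNC, which 0.814% of the 35116 promoters of the same length hold, and AANNGAAA close after it. GGGATTCNC was searched as the κB type of the class I enhancer, and its N falls where the HLA-B and HLA-C sites differ. Its presence in both genes is thus no independent find, and the background share is no test of an excess. Within the GGGATTCNC site, the single difference between HLA-B and HLA-C was C8T, with positions counted from 1 at the 5′ end of the site and the base of HLA-B first. AANNGAAA was found in 7 of the 8 genes, all but PSMB9, against 20.3% of all promoters. GGGANTTTC was found in TAP1 and B2M, against 1.12% of all promoters. TGACG was found in 5 of the 8 genes, with a background of 21.2%, and CCAAT in 6, with a background of 32.0%. The CCAAT matches counted for TAP1 and PSMB9 are 1 and the same site, read on opposite strands where their windows overlap. The start sites of TAP1 and PSMB9 lie 488 bases apart on opposite strands, so that the pair reads outward from 1 shared stretch. A match describes the letters and is not evidence of binding.

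The arrays were Affymetrix GeneChip Human Genome U133 Plus 2.0, which read each gene through 1 or more probe sets. Values are RMA intensities on a linear scale, and differences are 320-IWR minus COLO-320DM in log2 units. The median intensity of an array lay between 41.0 and 41.8, and arrays of the same line correlated at 0.991 for 320-IWR and 0.990 for COLO-320DM. Tests are limma's moderated test over all probe sets with Benjamini-Hochberg adjustment, and a probe set passed where its adjusted p was under 0.05 and the lines differed 2-fold or more. The labels do not say that replicates came from separate cultures, so the p-values measure the spread between arrays, which may be technical. The intestinal transcription factor CDX2 was bright in every array, with intensities of 2723 and 2790.2 in 320-IWR and of 3403 and 3263 in COLO-320DM. EPCAM, an epithelial surface marker, was dim, at 13.5 and 18.1 in 320-IWR and 23.5 and 35.1 in COLO-320DM. Among the 7 epithelial markers, the simple epithelial keratins KRT8 (-2.26, adjusted p = 0.0155) and KRT18 (-1.67, adjusted p = 0.0322) fell and KRT20 of mature intestinal cells rose (1.78, adjusted p = 0.0412) in 320-IWR. The summed intensity of the 7 was 3524 to 3549 in 320-IWR and 5142 to 5381 in COLO-320DM, and its part in the class I results was not tested. None of the 4 leukocyte markers measured passed the test, and their summed intensity was 249 to 303 in 320-IWR and 212 to 255 in COLO-320DM. In such bulk RNA, fewer cells with a transcript and less of it per cell cannot be told apart.

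No class I presentation gene passed the test in 320-IWR cells. All 25 probe sets missed it, and the lowest adjusted p was 0.332, for a probe set of HLA-E. Over the whole array, 0.37% of probe sets passed, 0.112% as higher and 0.258% as lower in 320-IWR. The largest difference among the 25 was 0.62 log2 units in size, and for 22 of them the 95% interval lay within a 2-fold difference in either direction. The 3 whose interval reached 2-fold were all of HLA-C and reached it on the lower side. At an unadjusted p under 0.05, 4 of the 25 probe sets (16%) stood out, all lower in 320-IWR, against 9.71% of all probe sets in either direction and 5.11% lower. Both 320-IWR arrays lay below both COLO-320DM arrays for 11 of the 25 probe sets (44%) and above them for 1, while 13 overlapped. Among all probe sets the lines did not overlap for 35.6%, with 320-IWR lower for 16.1% and higher for 19.5%. Overlap was judged over all 4 arrays and not between arrays of the same replicate number, since the labels establish no pairing. Lines that overlap can thus still differ alike at both numbers, as for 208829_at of TAPBP.

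The values of the heavy chains and of the rest of the pathway lay differently, though some of the rest were as low. All 13 heavy chain probe sets had a negative difference, with a median of -0.22. For 9 of them both 320-IWR arrays lay below both COLO-320DM arrays, as they did for 16.1% of all probe sets. Of the 12 probe sets of B2M, TAP1, TAP2, TAPBP and PSMB9, 4 had a negative and 8 a positive difference, with a median of 0.02. The negative ones included TAP1 (-0.22) and, for TAPBP, 208829_at (-0.18) and 1555565_s_at (-0.23), which lie near the heavy chain median. With 1 array left out the sign did not hold for all of the 13, except without COLO-320DM replicate 2. Without COLO-320DM replicate 1, 3 of the 13 were positive (0.04 for 208729_x_at of HLA-B, 0.07 for 204806_x_at and 0.38 for 221978_at of HLA-F), and without either 320-IWR array 1 was. Their median lay between -0.32 and -0.18 over these settings. Among all probe sets 46.0% had a negative difference, and the median was 0.01. The probe sets of a gene, and of heavy chains in general, are not independent readings. 11 of the 13 carry the suffix _x_at, which marks probe sets whose probes can also bind other transcripts, and the heavy chains are close in sequence. None of the other 12 carries it. The difference between the heavy chains and the rest was not tested.

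**Figure D1:**
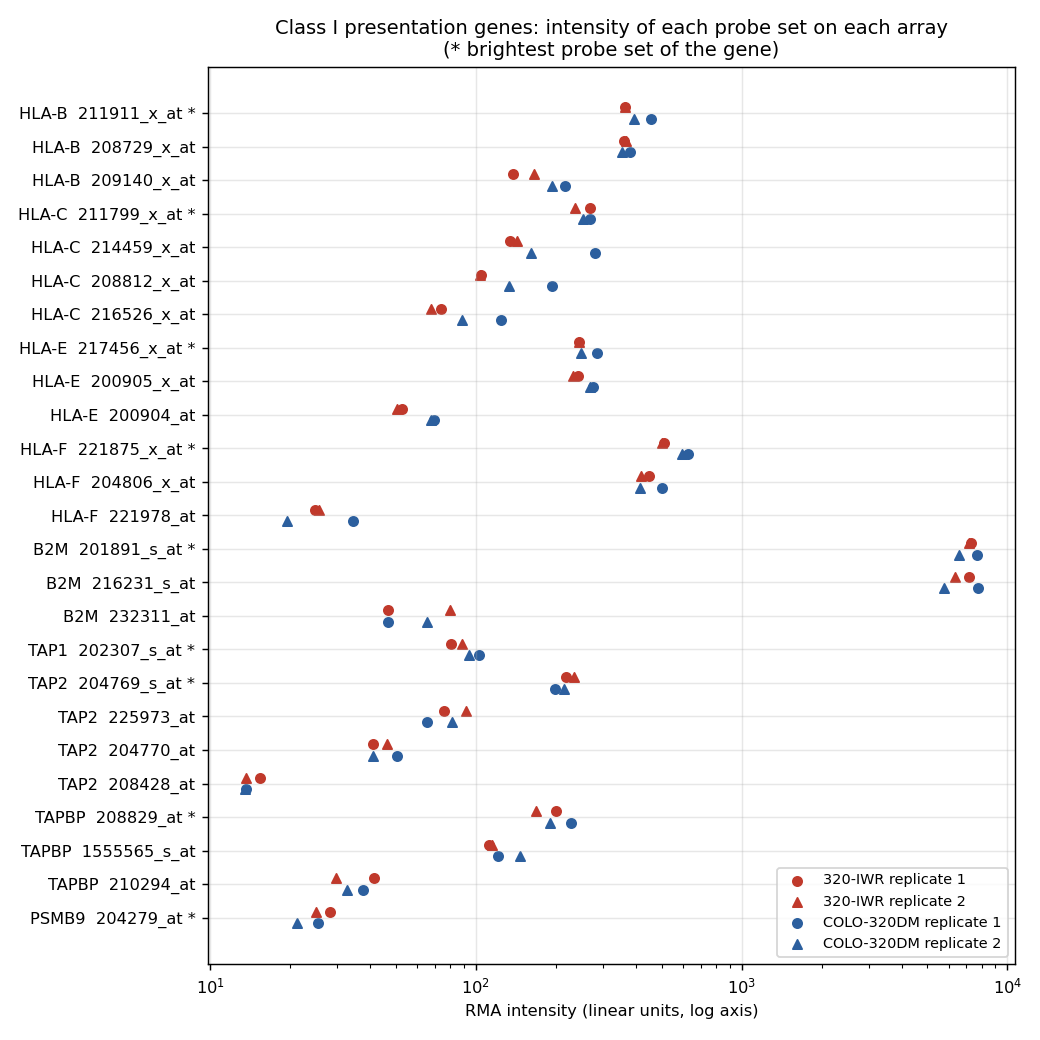
Intensity of each of the 25 probe sets (rows, grouped by gene, with the brightest of each gene starred) on each array, on a log axis of linear RMA units, with 320-IWR in red, COLO-320DM in blue, circles for replicate 1 and triangles for replicate 2. The red symbols lie left of the blue ones for 11 probe sets and right of them for 1, and B2M stands at 5771 to 7756 in its 2 bright probe sets.

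HLA-B and HLA-C, the classical heavy chains that present peptides to CD8+ T cells, gave different answers from one probe set to the next. The brightest HLA-B probe set, 211911_x_at, had intensities of 363 and 363 in 320-IWR, against 455 and 393 in COLO-320DM. HLA-B probe set 209140_x_at read 138 and 165 in 320-IWR, against 216 and 193 in COLO-320DM. HLA-B probe set 208729_x_at read 361 and 368 in 320-IWR, against 380.3 and 354 in COLO-320DM. Both 320-IWR arrays were thus the lower ones in the first and second of these probe sets, and in the last the 320-IWR arrays fell between the COLO-320DM arrays. The differences were -0.22 ± 0.13 (SE, adjusted p = 0.759 by limma, as for every adjusted p here), -0.44 ± 0.15 (adjusted p = 0.449, unadjusted p = 0.0355) and -0.01 ± 0.12 (adjusted p = 1), in the same order.

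For HLA-C, the brightest probe set, 211799_x_at, showed the lines overlapping, at 268 and 236 in 320-IWR and 269 and 253 in COLO-320DM (-0.05 ± 0.13, adjusted p = 0.993). The other HLA-C probe sets placed both 320-IWR arrays below both COLO-320DM arrays. Probe set 214459_x_at read 135 and 143 in 320-IWR, against 280.2 and 161 in COLO-320DM. Probe set 208812_x_at read 105 and 104 in 320-IWR, against 193 and 133 in COLO-320DM. Probe set 216526_x_at read 73.9 and 67.7 in 320-IWR, against 124 and 88.9 in COLO-320DM. In all 3 the 320-IWR arrays lay close together and COLO-320DM replicate 1 stood well above COLO-320DM replicate 2. The differences were -0.61 ± 0.28, -0.62 ± 0.21 and -0.57 ± 0.20 in that order, or 65.4%, 64.9% and 67.3% of the COLO-320DM level, with adjusted p of 0.628, 0.428 and 0.450. They rested to a large part on 1 array. Without COLO-320DM replicate 1 they were -0.21, -0.36 and -0.33, and without COLO-320DM replicate 2 they were -1.01, -0.89 and -0.81, with the lowest adjusted p at 0.264.

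**Figure D2:**
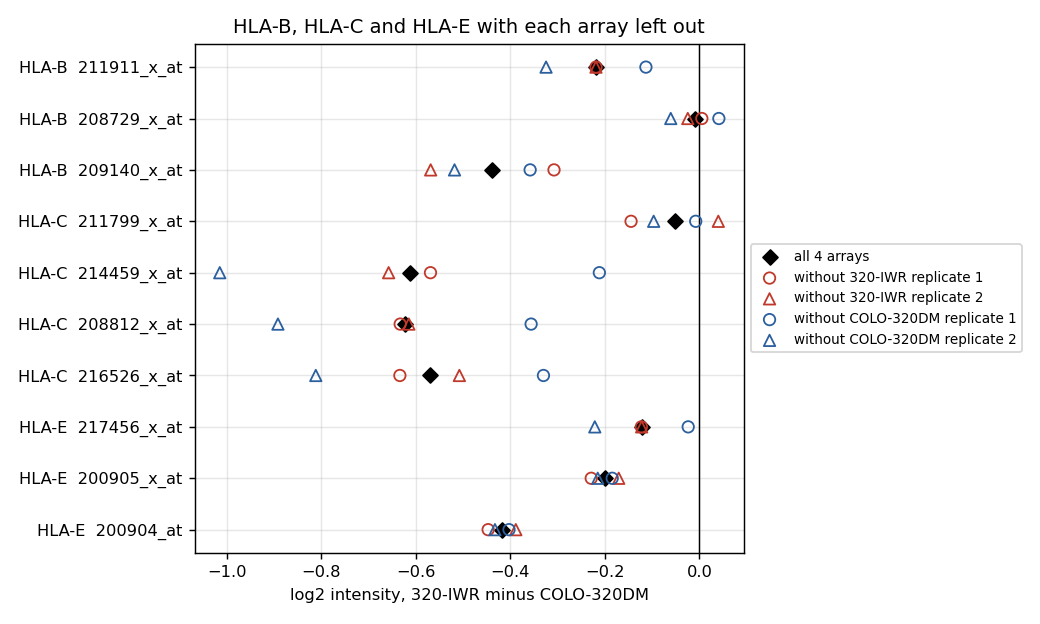
Difference between the lines (x axis, log2 intensity, 320-IWR minus COLO-320DM) for the probe sets of HLA-B, HLA-C and HLA-E (rows) with all 4 arrays (black diamonds) and with each array left out (open symbols). For 214459_x_at of HLA-C the value was -0.61 with all arrays, -0.21 without COLO-320DM replicate 1 and -1.01 without COLO-320DM replicate 2, whereas for 200904_at of HLA-E it kept between -0.45 and -0.39.

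HLA-E and HLA-F are nonclassical heavy chains. HLA-E shows peptides from the leaders of other class I chains to the receptor CD94/NKG2A of natural killer cells. Its probe set 200904_at, 1 of the 2 heavy chain probe sets without the _x_at suffix, read 52.5 and 50.4 in 320-IWR, against 69.4 and 68.0 in COLO-320DM. Both lines were tight and apart, and the 320-IWR level was 74.9% of the COLO-320DM level (-0.42 ± 0.12, 95% interval -0.72 to -0.12, unadjusted p = 0.0167, adjusted p = 0.332). With each array left out the difference kept between -0.45 and -0.39. The other HLA-E probe sets also had 320-IWR as the lower line, by smaller amounts. The brightest, 217456_x_at, read 244 and 244 in 320-IWR, against 285 and 248 in COLO-320DM (-0.12 ± 0.13, adjusted p = 0.925), and 200905_x_at read 242 and 232 in 320-IWR, against 275 and 269 in COLO-320DM (-0.20 ± 0.12, adjusted p = 0.742). HLA-E was the only heavy chain gene whose probe sets all kept the lines apart.

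The brightest HLA-F probe set, 221875_x_at, read 509 and 503 in 320-IWR, against 630.1 and 597 in COLO-320DM. This was the largest difference among the 9 genes by their brightest probe sets, at -0.28 ± 0.12 (95% interval -0.58 to 0.03, adjusted p = 0.573), and the lines did not overlap. In the other HLA-F probe sets they did. 204806_x_at read 448 and 418 in 320-IWR and 501 and 413 in COLO-320DM (-0.07 ± 0.15, adjusted p = 0.986), and the dim 221978_at read 24.8 and 25.6 in 320-IWR and 34.4 and 19.4 in COLO-320DM (-0.04 ± 0.29, adjusted p = 1). Over the 4 arrays, 1453 of the 19775 genes had centred log2 values within a root mean square difference of 0.1 of those of 221875_x_at. That limit is wide beside a difference of -0.28, so it also admits genes with smaller differences. The nearest genes were STAG3, APMAP, ERGIC2, WDR11 and LRRN4, at 0.0059 to 0.012.

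B2M, the light chain of class I molecules, was bright in both lines. Probe set 201891_s_at read 7295 and 7149 in 320-IWR, against 7678 and 6589 in COLO-320DM. Probe set 216231_s_at read 7179 and 6335 in 320-IWR, against 7756 and 5771 in COLO-320DM. In both, the 320-IWR arrays lay between the COLO-320DM arrays. The differences were 0.02 ± 0.13 (95% interval -0.33 to 0.37) and 0.01 ± 0.19 (-0.48 to 0.50), each with an adjusted p of 1. The dim probe set 232311_at read 46.7 and 79.7 in 320-IWR and 46.7 and 65.3 in COLO-320DM, where the replicates of each line differed more than the lines did (0.15 ± 0.32, adjusted p = 0.988).

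**Figure D3:**
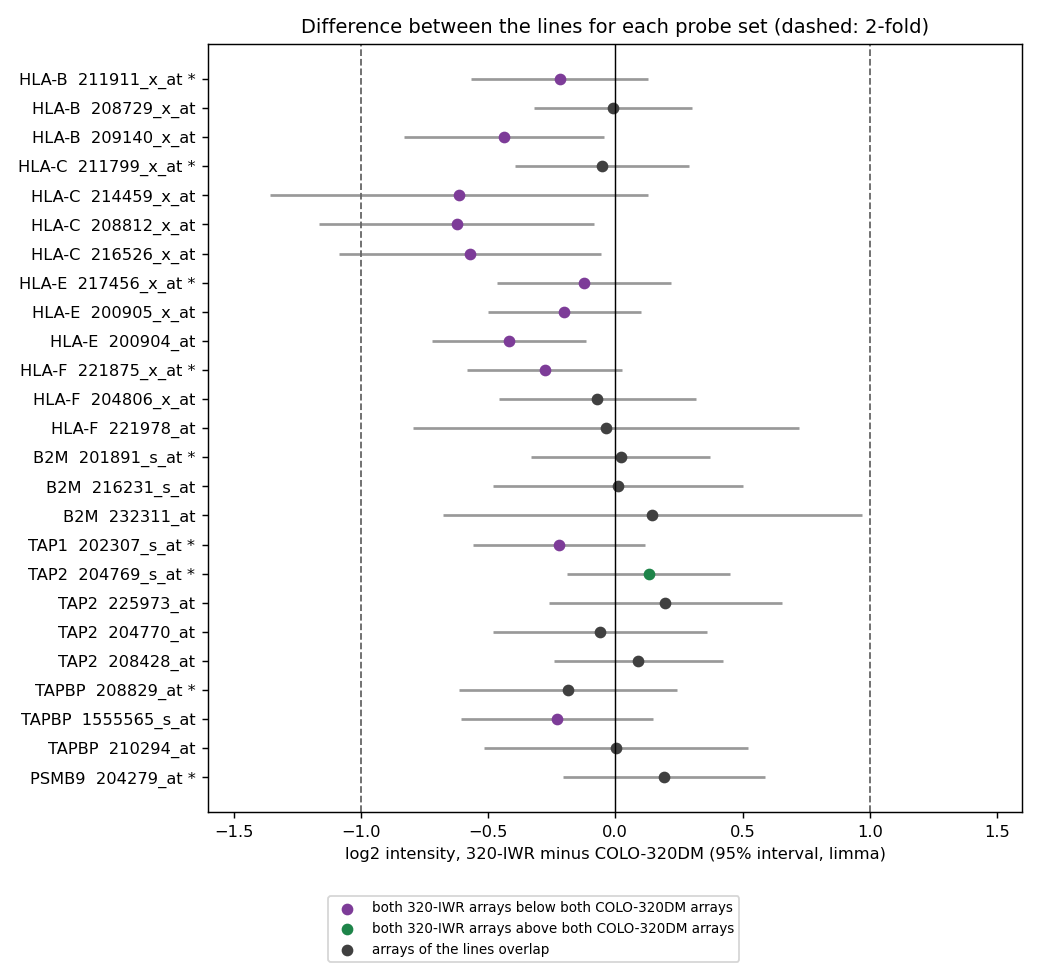
Difference between the lines (x axis, log2 intensity, 320-IWR minus COLO-320DM) with its 95% interval from limma for each of the 25 probe sets (rows, brightest of each gene starred), colored by whether the arrays of the lines overlap, with dashed lines at a 2-fold difference. All 13 heavy chain values lie left of 0, the B2M values lie at 0.01 to 0.15, and the 3 intervals that cross the 2-fold line belong to HLA-C.

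The subunits of the peptide transporter pointed in opposite directions. TAP1 has 1 probe set, 202307_s_at, which read 80.7 and 88.9 in 320-IWR, against 103 and 94.6 in COLO-320DM (-0.22 ± 0.13, 95% interval -0.56 to 0.12, adjusted p = 0.745). The brightest TAP2 probe set, 204769_s_at, read 218 and 233 in 320-IWR, against 198 and 214 in COLO-320DM (0.13 ± 0.12, adjusted p = 0.900). The lines were apart in both cases, lower in 320-IWR for TAP1 and higher in 320-IWR for TAP2, and neither difference was beyond the spread between arrays by the test. The other 3 TAP2 probe sets overlapped between the lines, with 225973_at at 75.9 and 91.8 in 320-IWR and 65.4 and 81.1 in COLO-320DM (0.20 ± 0.18, adjusted p = 0.889), and differences of -0.06 for 204770_at and 0.09 for 208428_at.

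TAPBP encodes tapasin, which bridges the transporter and the empty class I molecule. Its brightest probe set, 208829_at, read 200.1 and 168 in 320-IWR and 228 and 190.1 in COLO-320DM, and the lines overlapped (-0.18 ± 0.16, adjusted p = 0.888). Probe set 1555565_s_at kept them apart, at 112 and 115 in 320-IWR against 121 and 147 in COLO-320DM (-0.23 ± 0.15, adjusted p = 0.781). Probe set 210294_at read 41.3 and 29.8 in 320-IWR and 37.4 and 32.8 in COLO-320DM, with no difference in the mean (0.00 ± 0.20, adjusted p = 1). PSMB9, the interferon-inducible catalytic subunit, was dim in both lines, at 28.2 and 25.1 in 320-IWR and 25.5 and 21.3 in COLO-320DM, and overlapped (0.19 ± 0.15, 95% interval -0.21 to 0.59, adjusted p = 0.858).

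With 1 array left out, the brightest probe sets of these genes kept their sign and ranged between -0.29 and -0.15 for TAP1, 0.08 and 0.19 for TAP2, -0.32 and -0.05 for TAPBP, and 0.06 and 0.32 for PSMB9. The highest PSMB9 value came without COLO-320DM replicate 1 and the lowest without COLO-320DM replicate 2.

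By their brightest probe sets, 6 of the 9 genes had a lower and 3 a higher mean in 320-IWR, between -0.28 for HLA-F and 0.19 for PSMB9. Their median was -0.12, and the median over all 19775 genes was 0.02, with quartiles of -0.11 and 0.15. Of all genes, 23.3% lay at or below -0.12. The arrays of 320-IWR repeated each other more closely for these genes than those of COLO-320DM. The median gap between replicates over the 25 probe sets was 0.10 log2 units in 320-IWR and 0.22 in COLO-320DM, and over all probe sets it was 0.18 in 320-IWR and 0.17 in COLO-320DM.

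Of 99 genes measured that work with or around these 9, 3 (3.03%) passed the test, and all 3 fell in 320-IWR cells. Taking each gene by its brightest probe set, as in these lists, 0.592% of all 19775 genes passed. At an unadjusted p under 0.05 there were 18 of the 99 (18.2%), against 12.3% of all genes. The lists were chosen with earlier results of these data known, so these shares are no test of an excess. TAPBPL encodes TAPBPR, a tapasin-related editor of class I peptides. Its probe set 218747_s_at read 24.2 and 23.4 in 320-IWR, against 59.3 and 64.9 in COLO-320DM, so that TAPBPL fell to 38.4% of the COLO-320DM level (-1.38 ± 0.12, adjusted p = 0.0404). Its other probe set, 218746_at, read 31.5 and 21.2 in 320-IWR, against 45.0 and 60.1 in COLO-320DM (-1.01 ± 0.26, adjusted p = 0.285). Both kept the lines apart. The TAPBPL call was lost with any 1 array left out, at adjusted p between 0.186 and 0.328, while the difference kept between -1.45 and -1.32.

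The remaining 12 genes measured of the list of loading and trimming factors did not pass, and the median of the 13 was -0.15. Of the 13, 8 had a negative and 5 a positive difference, the highest at 0.51. By unadjusted p, ERAP1 and ERAP2, the aminopeptidases that trim peptides to fit class I molecules, came next after TAPBPL. ERAP1 probe set 209788_s_at read 150.3 and 162 in 320-IWR, against 257 and 275 in COLO-320DM (-0.77 ± 0.12, adjusted p = 0.132). ERAP2 probe set 227462_at read 23.9 and 19.5 in 320-IWR, against 37.2 and 40.1 in COLO-320DM (-0.84 ± 0.15, adjusted p = 0.167). The lines were apart for both of these probe sets, and the other probe sets of each gene differed less. For ERAP1 they were at -0.54 (210385_s_at), -0.28 (209701_at), 0.00 (214034_at) and 0.01 (214012_at), the latter pair dim and overlapping. For ERAP2 they were at -0.45 (219759_at), -0.31 (235104_at), -0.06 (1554273_a_at) and 0.05 (1554272_at). HSPA5, the chaperone BiP, read 4011 and 4539 in 320-IWR, against 6192 and 5885 in COLO-320DM (-0.50 ± 0.13, adjusted p = 0.298).

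None of the 3 immunoproteasome and activator genes measured of 4 listed passed. PSMB8 and PSMB10, the partners of PSMB9 in the immunoproteasome, had differences of -0.21 ± 0.14 and 0.28 ± 0.20. PSME1, a subunit of the interferon-inducible activator PA28, read 1150.2 and 962 in 320-IWR, against 2154 and 1720.2 in COLO-320DM (-0.87 ± 0.18, adjusted p = 0.197). PSMB6, the constitutive subunit that PSMB9 replaces, was bright in both lines and differed by 0.00 ± 0.12, and neither PSMB5 (-0.35 ± 0.18) nor PSMB7 (-0.01 ± 0.13) passed. Of 7 further class I related molecules measured, none passed, and the median was -0.09. FCGRT, the neonatal Fc receptor chain that also pairs with B2M, read 164 and 186 in 320-IWR, against 231 and 279 in COLO-320DM (-0.54 ± 0.16, adjusted p = 0.351). HFE is an iron regulator that also pairs with B2M. Its brightest probe set overlapped between the lines, at 163 and 224 in 320-IWR and 131 and 175 in COLO-320DM (0.33 ± 0.23, adjusted p = 0.816). Some of its other probe sets kept the lines apart with 320-IWR higher, such as 214647_s_at (0.42 ± 0.12, adjusted p = 0.340), and the rest overlapped. PROCR, the receptor of protein C, also overlapped (-0.38 ± 0.52, adjusted p = 0.961). HLA-G differed by -0.12 ± 0.12 in its brightest probe set, which is again of the _x_at kind.

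Of 13 transactivators of class I genes measured, none passed, with a median of -0.06. NLRC5, the class I transactivator, was dim, at 30.7 and 24.2 in 320-IWR and 39.1 and 28.4 in COLO-320DM, and overlapped between the lines. NLRC5 is given for its role in the pathway and was added after its values were seen. RFXANK, a subunit of the RFX complex, read 518 and 609 in 320-IWR, against 375 and 394 in COLO-320DM (0.55 ± 0.14, adjusted p = 0.286). RFXAP of the same complex differed by -0.35 ± 0.14, RELA, a subunit of NF-κB, by 0.47 ± 0.21, and IRF1, which interferon-γ induces, by -0.27 ± 0.16. Probe set 238725_at of IRF1, which is dimmer, overlapped between the lines (0.11 ± 0.20, adjusted p = 0.981).

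Of 13 interferon receptor and JAK-STAT genes, IFNLR1 passed, and the median was 0.01. IFNLR1, the specific chain of the interferon-λ receptor, fell in its probe set 244261_at, at 36.5 and 27.2 in 320-IWR against 169 and 208 in COLO-320DM (-2.57 ± 0.20, adjusted p = 0.0291). Its other probe set, 1555499_a_at, overlapped between the lines, at 83.2 and 69.6 in 320-IWR and 65.9 and 82.1 in COLO-320DM (0.05 ± 0.17, adjusted p = 1). The IFNLR1 call was lost with any 1 array left out, at adjusted p between 0.0968 and 0.220, while the difference kept between -2.78 and -2.36. IRF9, a partner of the STAT factors in type I interferon signaling, read 92.1 and 79.1 in 320-IWR, against 129 and 109 in COLO-320DM (-0.47 ± 0.16, adjusted p = 0.421). JAK1, a receptor kinase, and IL10RB, the shared chain of the interferon-λ receptor, differed by 0.19 ± 0.13 and -0.16 ± 0.13.

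Of 28 interferon-stimulated genes measured, CXCL11 passed, 16 had a negative and 12 a positive difference, and the median was -0.05. CXCL11, a chemokine that draws CXCR3+ T cells and that interferon-γ induces, read 34.2 and 31.4 in 320-IWR, against 717 and 533 in COLO-320DM in probe set 211122_s_at, which is 5.30% of the COLO-320DM level (-4.24 ± 0.18, adjusted p = 0.00853). Its other probe set gave a like difference (-4.22 ± 0.23, adjusted p = 0.0128). The CXCL11 call held without either COLO-320DM array, at adjusted p of 0.0382 and 0.0426, and was lost without either 320-IWR array, at 0.129 and 0.149, while the difference kept between -4.45 and -4.02. IFIT5, an antiviral RNA-binding protein, read 31.1 and 21.7 in 320-IWR, against 159 and 116 in COLO-320DM (-2.39 ± 0.25), and missed the threshold with an adjusted p of 0.0600. That is its probe set 203595_s_at, and 203596_s_at differed much less, at 38.7 and 32.0 in 320-IWR and 62.3 and 51.2 in COLO-320DM (-0.68 ± 0.17, adjusted p = 0.282). IFITM3 and IFITM2, membrane proteins that hinder virus entry, differed by -0.72 ± 0.16 and -0.59 ± 0.13, with adjusted p of 0.221 and 0.228.

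**Figure D4:**
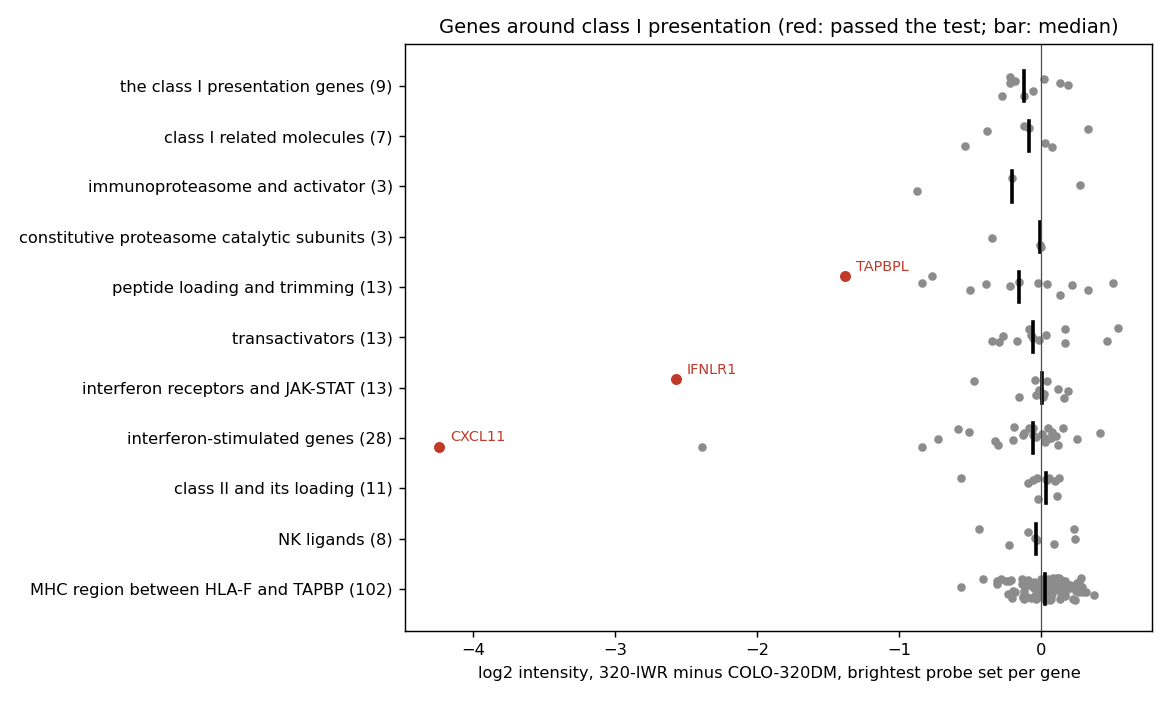
Difference between the lines (x axis, log2 intensity, 320-IWR minus COLO-320DM) of each gene by its brightest probe set, with the genes grouped in rows by list, the number measured in brackets and a bar at each median. Only TAPBPL at -1.38, IFNLR1 at -2.57 and CXCL11 at -4.24 (red) passed the test, and the list medians lie between -0.21 and 0.04.

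None of 11 HLA class II genes and their loading factors passed, with a median of 0.04, and none of 8 ligands of natural killer cell receptors, with a median of -0.03. HLA-DMA, a class II peptide editor, was the one class II gene with an unadjusted p under 0.05, at 28.1 and 21.2 in 320-IWR and 39.9 and 32.5 in COLO-320DM (-0.56 ± 0.20, adjusted p = 0.462). HLA-DPA1, HLA-DRA and HLA-DOA differed by 0.13 ± 0.12, -0.09 ± 0.14 and 0.06 ± 0.13. MICA and ULBP2, stress ligands of the receptor NKG2D, differed by 0.24 ± 0.12 and -0.44 ± 0.23, NECTIN2 by 0.23 ± 0.13 and ULBP1 by -0.09 ± 0.13. The dimmer probe sets of NECTIN2 lay between -0.06 and 0.35. All of the 9 genes except B2M lie in the major histocompatibility complex. Of the 102 other protein-coding genes measured there between HLA-F and TAPBP, HLA-DMA and other list members included, none passed, 60 had a positive and 42 a negative difference, and the median was 0.03. Next to HLA-DMA, the smallest p-values there were those of PPP1R18 (0.37 ± 0.13), ATAT1 (-0.40 ± 0.15) and PPP1R10 (0.31 ± 0.13).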

How the data were processed

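Total RNA of 320-IWR and COLO-320DM cells, labelled as 2 replicates of each line, was hybridised to 4 Affymetrix expression arrays (Human Genome U133 Plus 2.0). The deposited values are probe set intensity on a linear scale (3.51 to 22475), made by the authors with RMA according to the submitters' processing notes, which give no version, and the paper names GeneSpring GX for normalization. RMA subtracts no cross-hybridisation, so probe sets that bind several transcripts give a mixture, and dim probe sets understate differences. No detection calls were used. Groups came from the labels.

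The log2 of the deposited intensity (floor 1) was fitted with R 4.3.3 and limma 3.58.1 (lmFit, eBayes, line as the only term, prior of 2.78 degrees of freedom), after 62 control probe sets of 54675 were left out, with Benjamini-Hochberg adjustment over 54613 probe sets. The supplied annotation gives 41091 probe sets 1 symbol, 1801 several and 11721 none. The methods state no test. The brightest probe set (highest mean log2) stands for a gene in lists. The genes named are the 9 with all their probe sets and, in each list, those that passed and the 4 with the smallest unadjusted p. The 5 genes of like pattern have the smallest root mean square difference of centred log2 values over the 4 arrays. The members and lists were chosen with earlier results of these data known. Promoters were aligned with Biopython 1.88. The precision is limited by the number of arrays.

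Alternatives were a replicate block, each array left out, cyclic loess, a filter on dim probe sets, arrays scaled to equal medians, a trended robust prior, other thresholds, the mean of probe sets, ratios of arithmetic means, and the lists without _x_at and _s_at probe sets.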

Additional observations from a re-analysis of the deposited data

How the results depend on the processing

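No class I presentation probe set passed the test in any of the settings run. The differences of the 9 genes were recomputed in 12 alternative settings, which gave 104 values, 95 of them with an adjusted p. The replicate block, the trended robust prior and the filter on dim probe sets leave each difference as it was, so their signs could not change. Of the 104, 101 kept the sign, and 0 of the 95 passed the threshold, with a lowest adjusted p of 0.194. The other 3 were HLA-C, 0.040 without 320-IWR replicate 2 (range -0.14 to 0.040 with 1 array left out), and B2M, -0.089 without COLO-320DM replicate 2 (range -0.089 to 0.13) and -0.010 after cyclic loess. The median over the 9 genes was -0.12, ranged from -0.22 to -0.024 with 1 array left out, and was 0.054 without _x_at and _s_at probe sets, a setting that leaves HLA-B, HLA-C and TAP1 with none. The cause of the other shifts was not tested.

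Of all probe sets, 202 passed, and 43 did at an adjusted p under 0.01. With 1 array left out 0 to 63 passed by limma, and without a 320-IWR array it was 0, although 3756 and 3502 had an unadjusted p under 0.05. With the replicate number as a block 576 passed. Replicate gaps of the 2 lines correlated at 0.661 across probe sets, but nothing in the labels says that a number marks a shared culture or day, so the pairing is not established. With the block, the unadjusted p was under 0.05 for 5 class I presentation probe sets, and their lowest adjusted p was 0.110. Of the 99 genes of the lists around them 3 passed, 0 to 1 did with 1 array left out (0 without either 320-IWR array), and 18 had an unadjusted p under 0.05 (18.2%, against 12.3% of all genes). IFIT5 passed with the block (adjusted p = 0.0171), after cyclic loess (adjusted p = 0.0486) and with equal array medians (adjusted p = 0.0477). TAPBPL was removed by the filter on dim probe sets, and without _s_at probe sets it was read by 218746_at and did not pass.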
